A study of Mus musculus with 6 samples.

Results

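The 40 genes described here encode the enzymes and carriers that take glucose through glycolysis to pyruvate and lactate, pass pyruvate to the mitochondrial pyruvate dehydrogenase complex, and run the pentose phosphate pathway. They were chosen by symbol, with earlier results of these data known, and fill 41 of the 24182 rows of the gene table, because the symbol Aldoa stands on 2 rows. Th17 cells are CD4 T helper cells that make interleukin 17, and they were compared with and without CRISPR/Cas9 knockout of Sirt2, an NAD-dependent protein deacetylase. There were 3 libraries of Sirt2 KO Th17 cells and 3 of Sirt2 WT Th17 cells, which the labels call controls. Both groups had received antibodies to CD3 (0.5 μg/mL) and CD28 (1 μg/mL), a stimulus of the T cell receptor with costimulation, and RNA was taken after 72 hours. The labels call both groups untreated and give no strain, sex, age, guide or clone. Whether replicates were separate cultures or animals is not stated, so the spread behind every p-value here may be technical.

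Glycolysis splits glucose into pyruvate in the cytosol, and lactate dehydrogenase turns pyruvate into lactate while regenerating the NAD that glyceraldehyde phosphate dehydrogenase consumes. Activated T cells raise glucose uptake and lactate output, and Th17 cells are known for a strong dependence on glycolysis that the transcription factor HIF-1 supports. Most steps have several isozymes from separate genes, which differ in regulation and tissue use. The pentose phosphate pathway branches off at glucose 6-phosphate and supplies NADPH and ribose phosphate.

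The sequences that the transcript results below turn on come from Ldha (ENSMUSG00000063229, GRCm38 chr7:46841475-46855627, plus strand) and Pkm (ENSMUSG00000032294, GRCm38 chr9:59656368-59679375, plus strand). Exon positions are those of the GENCODE annotation of GRCm38, read 5′ to 3′ on the plus strand. The first is the coding exon of Ldha at chr7:46851877-46851994, 118 bases and in capitals throughout, which transcript ENSMUST00000048209 holds and the nonsense-mediated decay transcript ENSMUST00000209548 skips. A length of 118 leaves a remainder of 1 on division by 3, so the reading frame shifts without it. The second joins the last 30 bases before the skipped exon to the first bases after it, from chr7:46851029 to chr7:46853996, and ends at the shifted frame's stop codon, in capitals, after 11 coding bases of the next exon.
Skipped Ldha exon: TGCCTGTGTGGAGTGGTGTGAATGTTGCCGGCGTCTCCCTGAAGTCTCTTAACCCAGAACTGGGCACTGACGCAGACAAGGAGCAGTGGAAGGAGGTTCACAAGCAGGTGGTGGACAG
Ldha junction in the decay transcript: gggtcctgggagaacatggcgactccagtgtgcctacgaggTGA
Pkm has a pair of coding exons of 167 bases each that are used in the alternative. The exon of ENSMUST00000034834 at chr9:59675568-59675734 is that of the M2 form of pyruvate kinase, common in dividing cells, and the exon of ENSMUST00000163694 at chr9:59675029-59675195 is that of the M1 form of muscle and brain.
Pkm exon of the M2 form: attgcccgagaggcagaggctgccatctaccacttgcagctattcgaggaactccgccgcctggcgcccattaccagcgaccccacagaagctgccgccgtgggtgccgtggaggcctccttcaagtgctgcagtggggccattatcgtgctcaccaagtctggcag
Pkm exon of the M1 form: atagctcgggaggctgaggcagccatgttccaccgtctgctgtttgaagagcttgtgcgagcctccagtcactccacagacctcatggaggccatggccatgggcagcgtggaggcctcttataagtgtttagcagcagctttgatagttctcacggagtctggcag
The 4 Ldha transcripts that hold nearly all of its FPKM begin at an upstream or a downstream first exon, and the 250 bases before each RefSeq start (GRCm38.p6, plus strand) are shown because the shares of transcripts from these starts did not overlap between KO and WT. Capitals mark matches on either strand to ACGTG or GCGTG, the core letters of the HIF-1 response element. The palindrome CACGTG, the E-box bound by MYC and MAX, holds ACGTG on both strands and so counts as a pair of ACGTG matches.
Ldha upstream promoter, chr7:46845554-46845803: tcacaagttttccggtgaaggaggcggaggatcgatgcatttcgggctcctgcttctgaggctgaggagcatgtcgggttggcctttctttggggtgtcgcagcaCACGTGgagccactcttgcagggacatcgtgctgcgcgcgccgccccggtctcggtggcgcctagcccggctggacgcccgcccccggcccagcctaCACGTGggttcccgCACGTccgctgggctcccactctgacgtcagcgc
Ldha downstream promoter, chr7:46846832-46847081: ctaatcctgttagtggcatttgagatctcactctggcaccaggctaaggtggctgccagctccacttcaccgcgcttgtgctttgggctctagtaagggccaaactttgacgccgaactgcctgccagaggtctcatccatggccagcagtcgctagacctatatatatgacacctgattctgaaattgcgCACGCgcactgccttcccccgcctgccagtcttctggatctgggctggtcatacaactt
The upstream stretch held 5 ACGTG matches, of which 4 lie in its 2 CACGTG palindromes, and no GCGTG, and the downstream stretch held 1 GCGTG and no ACGTG. Of the 32851 promoters of this length in the RefSeq table, 0.134% held 5 or more ACGTG matches and 16.6% held at least 1. RefSeq promoters were found for 39 of the 40 genes, not for Slc2a3, and 20 of their 56 promoters (35.7%) held ACGTG, 31 (55.4%, against 28.2% of all promoters) held GCGTG and 6 (10.7%, against 6.02%) held CACGTG. These are matches of letters, not sites.

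Values below are FPKM, fragments relative to transcript length and to the library's own total, and are listed for replicates 1 to 3 of a group in that order. Read depth is unknown, since no counts are in the files. The gene FPKM of a library summed to 303772 to 321734, and 10642 to 10958 genes reached 1 FPKM. Sirt2 itself was at 11.2, 13.5 and 10.9 FPKM in KO and 20.7, 19.9 and 21.9 FPKM in WT, lower in all KO than in all WT libraries but not absent, with a ratio of KO to WT means of 0.572 and a log2 fold change of -0.76 (limma adjusted p = 0.0429, 95% interval -0.98 to -0.55). Its call was lost when genes of low value were kept in the fit (adjusted p = 0.131). The cells carried T cell and Th17 genes in all libraries, with Cd4 at 89.4, 102 and 90.7 FPKM in KO and 93.7, 91.8 and 93.2 FPKM in WT. The summed level of the 11 Th17 markers was 398 to 557 in KO and 561 to 582 in WT (FPKM). Its largest part was Il17f, which overlapped between groups at 202, 350 and 244 FPKM in KO and 329, 343 and 357 FPKM in WT. Il22 was higher in all KO than in all WT libraries and Maf lower (an order that 6.88% of tested genes have), and the other Th17 markers overlapped. Markers of other cells were low but not equal between groups. The 9 measured cytotoxic and NK markers summed to between 26.0 and 29.5 FPKM in KO and between 9.40 and 10.1 FPKM in WT, with 6 of 9 higher in all KO libraries (an order that 4.28% of tested genes have), and the 11 myeloid markers to between 39.4 and 41.0 FPKM in KO and between 30.2 and 31.5 FPKM in WT, with 5 of 11 higher. The 9 B cell markers summed to between 26.8 and 32.9 FPKM in KO and between 23.0 and 23.3 FPKM in WT, with 3 of 9 higher, the 11 erythroid and fibroblast markers stayed at or under 1.41 FPKM in sum, and none of these markers was at 0 in all 6 libraries. What part these cells have in the results was not tested, and fewer cells of a type and less RNA per cell cannot be told apart in bulk RNA.

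KO replicate 3 stood apart from KO replicates 1 and 2 over all genes, not in these pathways alone. KO replicates 1 and 2 correlated across genes at 0.9919. KO replicate 3 correlated with them at 0.981 and 0.9793, and with WT replicates 1 to 3 at 0.9897, 0.9903 and 0.9896. The correlations with WT replicates 1 to 3 were lower for KO replicate 1, at 0.986, 0.987 and 0.9866, and for KO replicate 2, at 0.9852, 0.9867 and 0.9872. KO replicate 3 was thus nearer to WT than the other KO libraries, and which KO libraries are the unusual ones was not tested. KO replicate 3 was the highest of the 6 libraries for 18 of the 36 genes that passed the filter (50%, against 27.7% of all genes), and KO replicates 1 and 2 were both below every other library for 13 (36.1%, against 28.1%). In glucose uptake and upper glycolysis it was highest for 10 of 12 genes, while in the pentose phosphate pathway it was highest for 0 of 7. Relative to the WT mean, the median difference on the log2(FPKM + 1) scale over the 12 uptake and upper glycolysis genes was -0.13, -0.10 and 0.27 in KO replicates 1 to 3. Results are given with this library, and also without it where that changes a call.

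**Figure D1:**
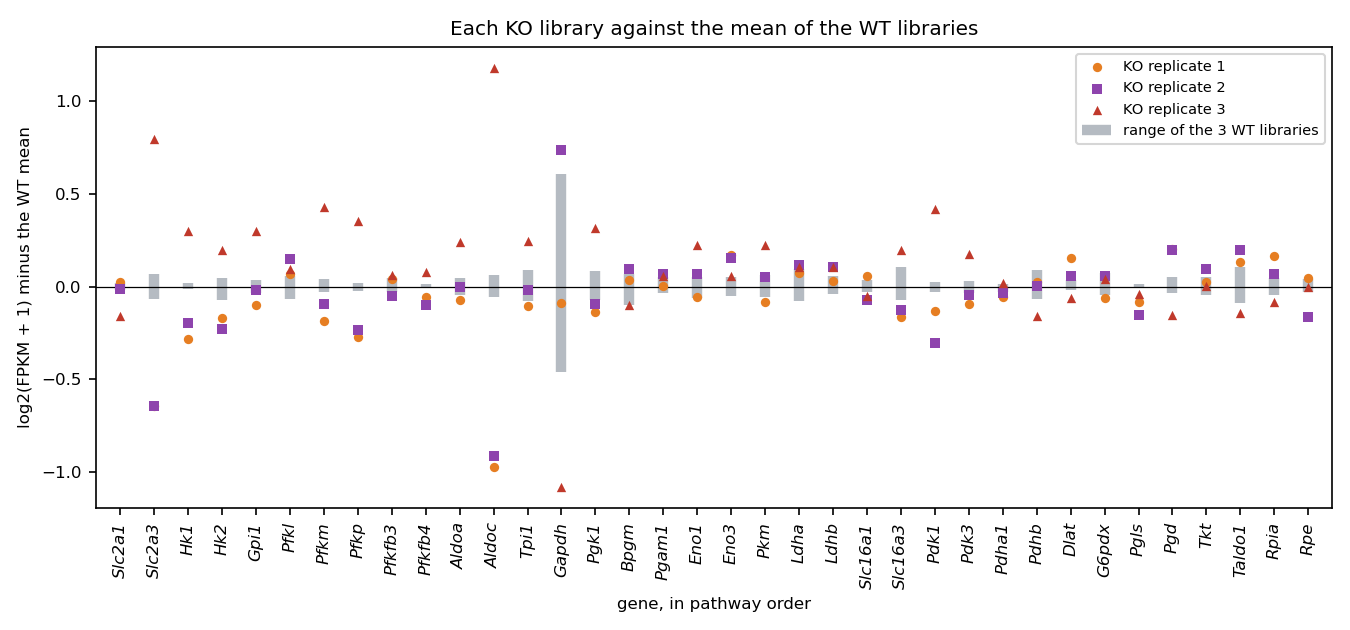
Difference of each KO library from the mean of the 3 WT libraries, on the log2(FPKM + 1) scale, for the 36 tested genes, in pathway order. Circles, squares and triangles are KO replicates 1, 2 and 3 and grey bars span the 3 WT libraries. KO replicate 3 lies above the WT bar for most genes from Slc2a3 to Pdk3 and within or below it for the pentose phosphate genes, with the KO libraries of Aldoc, Gapdh and Slc2a3 the widest apart.

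No gene of these pathways passed the test of KO against WT over all 6 libraries. KO was compared with WT by limma on log2(FPKM + 1) over the 10873 genes at 1 FPKM or more in at least 3 libraries, with Benjamini-Hochberg adjustment. Of the 36 rows tested, 0 passed an adjusted p of 0.05 and 0 had an unadjusted p under 0.05, and the smallest adjusted p was 0.844. Over all tested genes 12 passed, 0.11%, with 610 at an unadjusted p under 0.05, so the background share is itself near 0. In the authors' deposited table, none of the 41 rows had a q-value under 0.05, against 0.422% of all genes. The smallest q-value was 0.1695, for Hk3, which was at or under 0.0919 FPKM in every library and did not pass the filter. All other rows had a q-value of 0.9998. The log2 fold changes lay between -0.236 and 0.125, with a median of 0.015 where that of all genes was -0.025, and 21 were above 0 and 15 below. For 33 of the 36 genes the 95% interval stayed within 0.5 on either side of 0, and the exceptions were Slc2a3, Aldoc and Gapdh. All KO libraries were above all WT libraries for 2 genes (the background is 4.28% of tested genes) and below them for 1 (the background is 6.88%). The 40 genes together summed to 5467, 5759 and 6404 FPKM in KO and 5416, 5640 and 5885 FPKM in WT, which is 1.76, 1.79 and 2.09% in KO and 1.78, 1.85 and 1.90% in WT of the library's gene FPKM. These sums count Gapdh by its own row alone, which is too low a measure for reasons given below. With the near-identical copies of Gapdh added, the share was 3.27, 3.33 and 3.855% in KO and 3.26, 3.37 and 3.465% in WT.

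Without KO replicate 3, 4 of the 36 genes fell in KO and 0 rose, where 6.14% of the 10726 genes then tested fell and 4% rose. The 4 were Aldoc, Slc2a3, Pfkp and Hk1, all of uptake and upper glycolysis. They are described at their steps, and the median log2 fold change of the 12 genes of that group was -0.04 with all libraries and -0.11 without KO replicate 3. The other genes of the pathways did not pass in that fit, and 9 of the 36 had an unadjusted p under 0.05, where 32.5% of all genes did. Every library was left out in turn, and KO replicate 3 is singled out here because its values stood apart. For all 4 genes it lay above every WT library and the other KO libraries below, so leaving it out narrows the KO spread. The calls without it rest on the remaining KO libraries and on a choice made from the values.

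**Figure D2:**
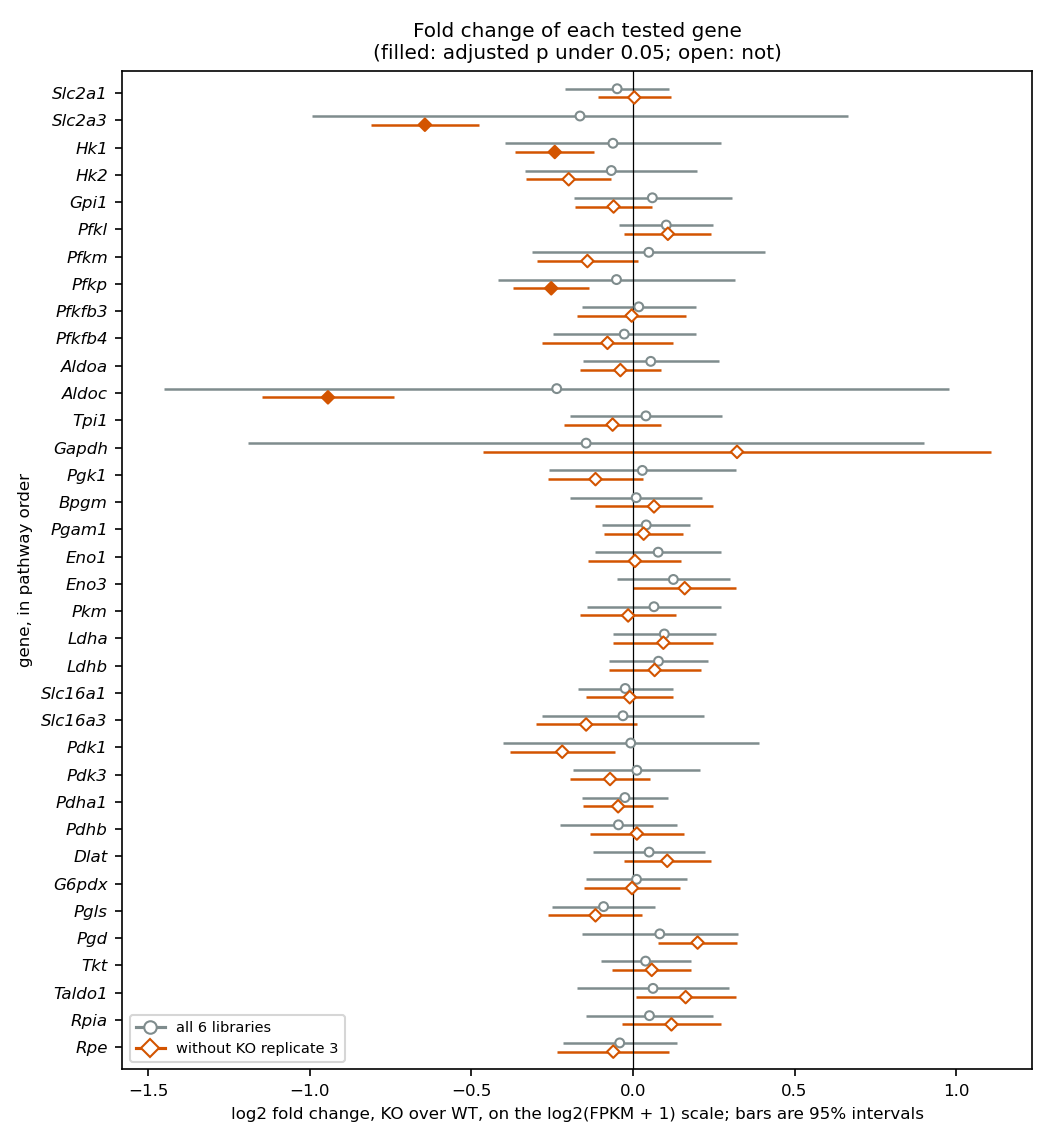
Log2 fold change of KO over WT for the 36 tested genes, in pathway order from glucose transport at the top to the pentose phosphate pathway at the bottom, with 95% intervals from limma. Grey circles use all 6 libraries and orange diamonds leave out KO replicate 3. Filled symbols mark an adjusted p under 0.05, which only Slc2a3, Hk1, Pfkp and Aldoc reach, and only without that library.

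Glucose enters through transporters. Slc2a1, which encodes GLUT1, was at 37.1, 36.1 and 32.6 FPKM in KO and 36.6, 35.95 and 36.9 FPKM in WT. The groups overlapped and KO replicate 3 was the lowest library, with a log2 fold change of -0.05 (limma adjusted p = 0.902, 95% interval -0.21 to 0.11). Slc2a3, which encodes the high-affinity transporter GLUT3 (ENSMUSG00000003153, GRCm38 chr6:122727809-122801640, minus strand), was at 4.77, 4.79 and 14.7 FPKM in KO and 7.62, 8.45 and 8.04 FPKM in WT. KO replicates 1 and 2 were below all WT libraries and KO replicate 3 was above them, so the log2 fold change was -0.16 (limma adjusted p = 0.932, 95% interval -0.99 to 0.67). Without KO replicate 3 Slc2a3 fell by 0.64 on the log2 scale (limma adjusted p = 0.00841, 95% interval -0.81 to -0.48). GLUT1 held most of the step, at 88.6, 88.3 and 68.97% in KO and 82.8, 80.96 and 82.1% in WT of the summed FPKM of both genes (exact two-sided permutation p = 1.0, where 3 against 3 cannot go below 0.1).

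Hexokinase traps glucose as glucose 6-phosphate. Hk2, the form that activated and tumour cells induce, was at 43.5, 41.6 and 56.3 FPKM in KO and 49.9, 50.5 and 46.6 FPKM in WT. KO replicates 1 and 2 were below and KO replicate 3 above every WT library, with a log2 fold change of -0.07 (limma adjusted p = 0.91, 95% interval -0.33 to 0.20). Hk1, the form found in most tissues, was at 28.3, 30.1 and 42.9 FPKM in KO and 34.6, 34.4 and 35.1 FPKM in WT, the same order of libraries. Its log2 fold change was -0.06 (limma adjusted p = 0.937) with all libraries, and without KO replicate 3 Hk1 fell, with a log2 fold change of -0.24 (limma adjusted p = 0.0348, 95% interval -0.36 to -0.12). Hk3 did not pass the filter and was at or under 0.0919 FPKM in KO and listed at 0 in all WT libraries. Hk2 held 60.6, 57.96 and 56.8% in KO and 59.04, 59.5 and 57.05% in WT of the step, a share that did not separate the groups (exact two-sided permutation p = 0.9). Which hexokinase led depended on how a gene value was formed: the deposited gene FPKM divides by all annotated exons of a gene, and with the FPKM of its transcripts summed instead, Hk1 led with 56.7% in KO and 56.7% in WT. Gpi1, which isomerises glucose 6-phosphate, was at 84.3, 89.1 and 112 FPKM in KO and 88.1, 90.5 and 92.6 FPKM in WT, highest in KO replicate 3 and otherwise overlapping, with a log2 fold change of 0.06 (limma adjusted p = 0.914, 95% interval -0.18 to 0.30).

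Phosphofructokinase 1 commits the sugar to glycolysis. Its liver-type gene Pfkl (ENSMUSG00000020277, GRCm38 chr10:77986947-78010083, minus strand) was at 42.8, 45.2 and 43.5 FPKM in KO and 38.9, 42.4 and 41.04 FPKM in WT. All KO libraries were above all WT libraries, one of the 2 genes here with that order, by a log2 fold change of 0.10 (limma adjusted p = 0.847, 95% interval -0.04 to 0.25). The platelet-type gene Pfkp was at 24.7, 25.5 and 38.7 FPKM in KO and 30.2, 29.6 and 30.5 FPKM in WT, below all WT libraries in KO replicates 1 and 2 and above them in KO replicate 3. Its log2 fold change was -0.05 (limma adjusted p = 0.957) with all libraries, and without KO replicate 3 Pfkp fell, with a log2 fold change of -0.25 (limma adjusted p = 0.0287, 95% interval -0.37 to -0.14). The muscle-type gene Pfkm had the same order of libraries, at 7.34, 7.88 and 11.8 FPKM in KO and 8.76, 8.30 and 8.42 FPKM in WT, with a log2 fold change of 0.05 (limma adjusted p = 0.958, 95% interval -0.31 to 0.41). Pfkl held 57.2, 57.5 and 46.3% in KO and 49.97, 52.8 and 51.3% in WT of the 3 genes' FPKM (exact two-sided permutation p = 0.6), lowest in KO replicate 3. By summed transcript FPKM Pfkp led instead, with 49.5% in KO and 51.7% in WT. The bifunctional enzymes that set fructose 2,6-bisphosphate, the activator of phosphofructokinase 1, were low. Pfkfb3, the form with high kinase activity, was at 6.03, 5.59 and 6.12 FPKM in KO and 5.69, 5.75 and 6.04 FPKM in WT and held 72.7, 74.9 and 68.1% in KO and 67.6, 68.5 and 71.1% in WT of its step (exact two-sided permutation p = 0.3). Pfkfb4 was at 1.75, 1.66 and 2.02 FPKM in KO and 1.88, 1.84 and 1.85 FPKM in WT, and Pfkfb2 did not pass the filter, at 0.211 to 0.858 FPKM over the 6 libraries. Neither Pfkfb3 nor Pfkfb4 separated the groups.

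Aldolase cleaves fructose 1,6-bisphosphate, and Aldoa carried it almost alone. Aldoa was at 547, 574 and 681 FPKM in KO and 559, 574 and 595 FPKM in WT, overlapping between groups, with a log2 fold change of 0.06 (limma adjusted p = 0.91, 95% interval -0.16 to 0.27). The second row of that symbol is a separate annotated gene at 0.113 to 0.904 FPKM over the libraries and did not pass the filter. Aldoc, the brain-type aldolase (ENSMUSG00000017390, GRCm38 chr11:78322968-78327781, plus strand), was at 1.22, 1.31 and 8.85 FPKM in KO and 3.18, 3.54 and 3.34 FPKM in WT. KO replicate 3 was 7.01 times the mean of KO replicates 1 and 2, and all WT libraries lay between them. Its log2 fold change was -0.24 (limma adjusted p = 0.933) with a 95% interval of -1.45 to 0.98, and without KO replicate 3 Aldoc fell, with a log2 fold change of -0.94 (limma adjusted p = 0.00541, 95% interval -1.15 to -0.74). Aldoa held 99.8, 99.8 and 98.7% in KO and 99.4, 99.4 and 99.4% in WT of the step (exact two-sided permutation p = 1.0). Tpi1, which interconverts the triose phosphates that aldolase makes, was at 422, 447 and 538 FPKM in KO and 429, 449.8 and 482 FPKM in WT, with a log2 fold change of 0.04 (limma adjusted p = 0.943, 95% interval -0.19 to 0.28), and KO replicate 3 was again the highest library.

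**Figure D3:**
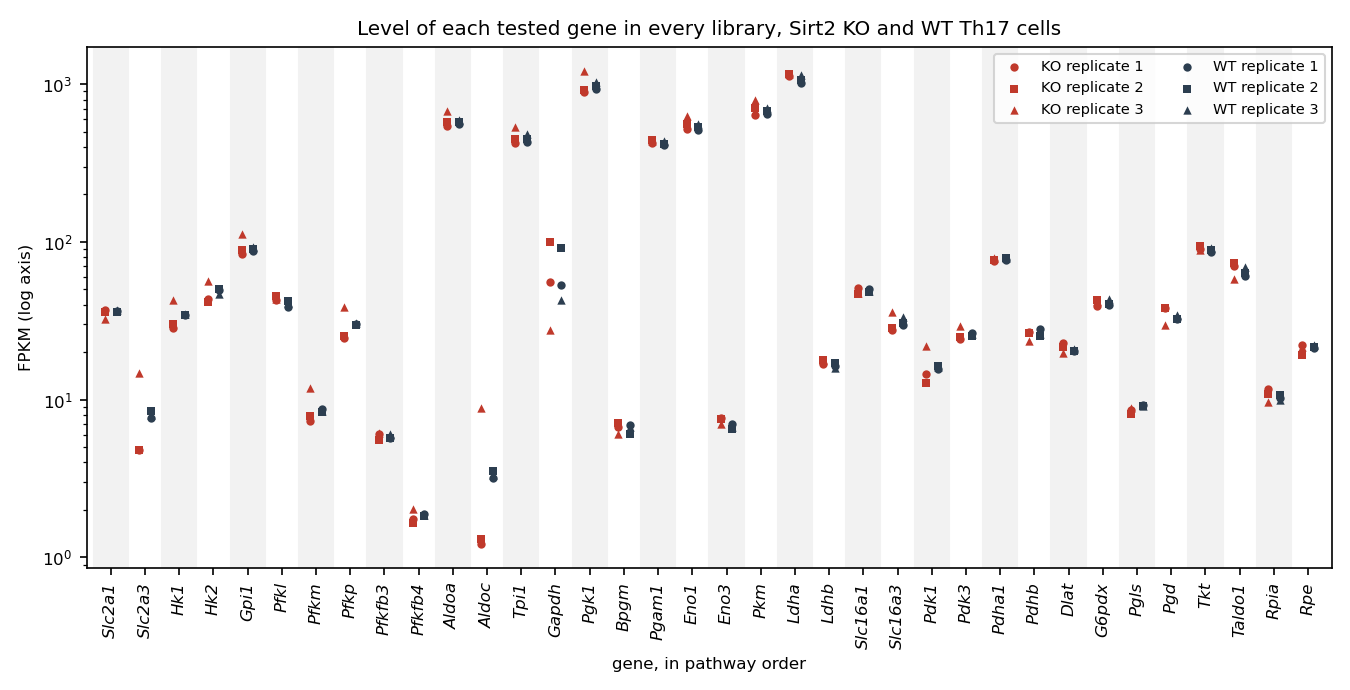
FPKM on a log axis of the 36 tested genes in every library, KO in red to the left and WT in dark blue to the right of each gene's position, with a symbol per replicate. Ldha and Pgk1 stand near 1000 FPKM, Aldoa, Tpi1, Pgam1, Eno1 and Pkm above 400, and the regulators Pfkfb3 and Pfkfb4 near 6 and 2 FPKM. Gapdh is spread from 27.6 to 99.4 FPKM.

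Gapdh, the glyceraldehyde 3-phosphate dehydrogenase gene (ENSMUSG00000057666, GRCm38 chr6:125161715-125166467, minus strand), cannot be read from its own row. The row was at 55.7, 99.4 and 27.6 FPKM in KO and 53.4, 91.1 and 42.9 FPKM in WT, a spread within each group that is wider than the difference between them (a log2 fold change of -0.14 (limma adjusted p = 0.957, 95% interval -1.19 to 0.90)). The annotation holds 76 genes with a stretch of at least 300 bases at 95% identity or more to Gapdh, of which 74 are in the table, 36 average 1 FPKM or more and 15 average above the Gapdh row. One of them, Gm12671, identical over 1002 bases and named after its values were seen, was at 437, 470.3 and 507 FPKM in KO and 424, 437 and 460.0 FPKM in WT. The copies summed to 4709, 4953 and 5395 FPKM in KO and 4492, 4608 and 4864 FPKM in WT, and the Gapdh row made up 1.17, 1.97 and 0.508% of the total of both in KO and 1.17, 1.94 and 0.875% in WT. That total, 4764, 5053 and 5423 FPKM in KO and 4545, 4699 and 4906 FPKM in WT, overlapped between groups (ratio of means 1.08, exact two-sided permutation p = 0.2). None of the 36 tested copies passed (smallest limma adjusted p = 0.843), and 8 were higher in all KO than in all WT libraries, an order that 4.28% of all tested genes have. The copies can share the same reads, so these 8 are not separate measurements, and their number cannot be held against that share. The Gapdh percentages use the deposited gene FPKM, which divides by all annotated exons of a gene (4133 bases for Gapdh), so they can be too low. With transcript FPKM summed, the mean of Gapdh was 157 instead of 61.7 FPKM. Reads of near-identical genes can be split among them, so a level of Gapdh cannot be given from its row or from the total alone.

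Pgk1, Pgam1 and Eno1, which act after Gapdh, were among the most abundant genes of the pathway. Pgk1, phosphoglycerate kinase, the first ATP-yielding step, was at 889.6, 915 and 1219 FPKM in KO and 930.2, 969.5 and 1036 FPKM in WT, highest in KO replicate 3 and lowest in KO replicates 1 and 2, with a log2 fold change of 0.03 (limma adjusted p = 0.97, 95% interval -0.26 to 0.32). Pgam1, phosphoglycerate mutase, was at 423, 442 and 439.7 FPKM in KO and 413, 417 and 437 FPKM in WT, with a log2 fold change of 0.04 (limma adjusted p = 0.904, 95% interval -0.10 to 0.18). Bpgm, which makes and removes 2,3-bisphosphoglycerate, was at 6.75, 7.07 and 6.05 FPKM in KO and 6.93, 6.05 and 6.71 FPKM in WT, and neither gene separated the groups. Eno1, the enolase of most tissues, was at 517, 562 and 626 FPKM in KO and 514, 539 and 557 FPKM in WT, with a log2 fold change of 0.08 (limma adjusted p = 0.883, 95% interval -0.12 to 0.27). Eno3, the muscle enolase (ENSMUSG00000060600, GRCm38 chr11:70657202-70662513, plus strand), was at 7.69, 7.59 and 7.04 FPKM in KO and 7.03, 6.47 and 6.70 FPKM in WT. All KO libraries were above all WT libraries, the smallest gap being 7.035 FPKM in KO replicate 3 against 7.030 FPKM in WT replicate 1, and the difference had the smallest p of these genes with a log2 fold change of 0.12 (limma adjusted p = 0.844, 95% interval -0.05 to 0.30). Eno2, the neuronal enolase, did not pass the filter, at 0.334 to 0.520 FPKM over the libraries. Eno1 held 98.5, 98.6 and 98.8% in KO and 98.5, 98.7 and 98.7% in WT of the step (exact two-sided permutation p = 0.7). Reads of Eno1, Pgk1, Pgam1, Pkm, Tpi1 and Ldha can also be shared with near-identical copies. The gene's own row made up 70.4 to 71.2% of the total with its copies for Eno1, 93.9 to 94.6% for Pgk1, 88.7 to 89.6% for Pgam1, and at least 95.6% for the others over the 6 libraries. These shares use the deposited gene FPKM, which divides by all annotated exons of a gene (5379 bases for Eno1), so they can be too low. With transcript FPKM summed, the mean of Eno1 was 1470 instead of 553 FPKM.

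Pyruvate kinase makes pyruvate and ATP. Pkm was at 642, 704 and 794 FPKM in KO and 652, 679 and 708 FPKM in WT, with a log2 fold change of 0.07 (limma adjusted p = 0.902, 95% interval -0.14 to 0.27), the groups overlapping and KO replicate 3 highest. The M2 transcript, with the first Pkm exon printed above, was at 1267, 1392 and 1568 FPKM in KO and 1297, 1353 and 1382 FPKM in WT. The M1 transcript was at 57.7, 60.2 and 68.8 FPKM in KO and 43.4, 42.7 and 80.2 FPKM in WT, and both overlapped between groups (limma adjusted p = 0.931 for M2 and 0.915 for M1 over all transcripts). The M2 transcript held 95.7, 95.8 and 95.8% in KO and 96.8, 96.9 and 94.5% in WT of the FPKM of both forms (exact two-sided permutation p = 0.9). A retained-intron transcript of Pkm, ENSMUST00000214571, was at 3.87, 3.55 and 6.51 FPKM in KO and 7.08, 7.59 and 7.05 FPKM in WT, below WT in every KO library but short of the test (limma adjusted p = 0.873). ENSMUST00000216620 and ENSMUST00000215623, the other 2 of the 5 Pkm transcripts that average 1 FPKM or more, were at 1.12 to 1.67 FPKM and at 0.209 to 2.62 FPKM over the libraries.

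Lactate dehydrogenase closes aerobic glycolysis. Ldha, the form that favours lactate production, had the highest mean of these genes, leaving out Gapdh, at 1134, 1169 and 1160 FPKM in KO and 1021, 1067 and 1152 FPKM in WT. KO replicate 1 was below WT replicate 3, so the groups overlapped, with a log2 fold change of 0.10 (limma adjusted p = 0.866, 95% interval -0.06 to 0.26). Ldhb, the form that favours pyruvate, was at 16.8, 17.8 and 17.7 FPKM in KO and 16.2, 17.2 and 15.97 FPKM in WT, with a log2 fold change of 0.08 (limma adjusted p = 0.87, 95% interval -0.07 to 0.23). Ldha held 98.5, 98.5 and 98.5% in KO and 98.4, 98.4 and 98.6% in WT of the step (exact two-sided permutation p = 1.0). The 2 monocarboxylate transporters carry lactate across the membrane. Slc16a1, which encodes MCT1, was at 50.9, 46.4 and 47.2 FPKM in KO and 50.1, 47.9 and 48.9 FPKM in WT, with a log2 fold change of -0.02 (limma adjusted p = 0.949, 95% interval -0.17 to 0.12). Slc16a3, which encodes the lactate exporter MCT4, was at 27.7, 28.5 and 35.9 FPKM in KO and 29.6, 30.5 and 33.6 FPKM in WT, with a log2 fold change of -0.03 (limma adjusted p = 0.963, 95% interval -0.28 to 0.22), highest in KO replicate 3. Slc16a1 held 64.7, 61.97 and 56.8% in KO and 62.9, 61.1 and 59.3% in WT of their sum, and the groups overlapped (exact two-sided permutation p = 1.0).

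At Ldha 1 transcript passed the test of KO against WT, while the gene did not. That transcript, ENSMUST00000209548, annotated as a target of nonsense-mediated decay (the pathway that degrades messages with an early stop codon), was listed at 0 in all 3 KO libraries and at 505, 726 and 698 FPKM in WT. It fell in KO (limma adjusted p = 1.6e-05), the single call among the 79 tested of the 246 transcripts of these genes, where 8 of 19184 transcripts passed, 0.0417%. No fold change is given against a group listed at 0. The transcript passed the filter through the WT libraries alone, and without any 1 of them it was not tested. With no filter it also passed (adjusted p = 0.000182). In the authors' deposited table its q-value was 1.206e-49, where 1.82% of transcripts had a q-value under 0.05. An exact 0 in such a table can be a failed estimate rather than an absent transcript, and which holds was not tested.

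The full-length coding transcript of the same upstream start, ENSMUST00000048209, ran the other way. It was at 1819, 1993 and 1732 FPKM in KO and 987, 489 and 844 FPKM in WT, with all KO libraries above all WT libraries (the background is 4.71% of transcripts). The difference was a log2 fold change of 1.31 (limma adjusted p = 0.459, 95% interval 0.67 to 1.96), which did not pass, while in the authors' deposited table its q-value was 1.518e-06 and its ratio 2.39. The 2 leading transcripts of the downstream start are both coding. ENSMUST00000209984, whose coding sequence begins in its own first exon, was at 124, 173 and 348 FPKM in KO and 359.8, 648 and 395 FPKM in WT, below WT in every KO library (the background is 6.36%), with a log2 fold change of -1.20 (limma adjusted p = 0.861, 95% interval -2.24 to -0.17). ENSMUST00000005051, whose coding sequence begins in the exon shared by both starts, was at 358, 218 and 253 FPKM in KO and 286, 359 and 484 FPKM in WT, and the groups overlapped. These 4 transcripts made up 99.5, 99.6 and 99.5% in KO and 99.3, 99.01 and 99.5% in WT of the summed Ldha transcript FPKM. The other 3 that average 1 FPKM or more were at 0.42 to 18.6 FPKM over the libraries.

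**Figure D4:**
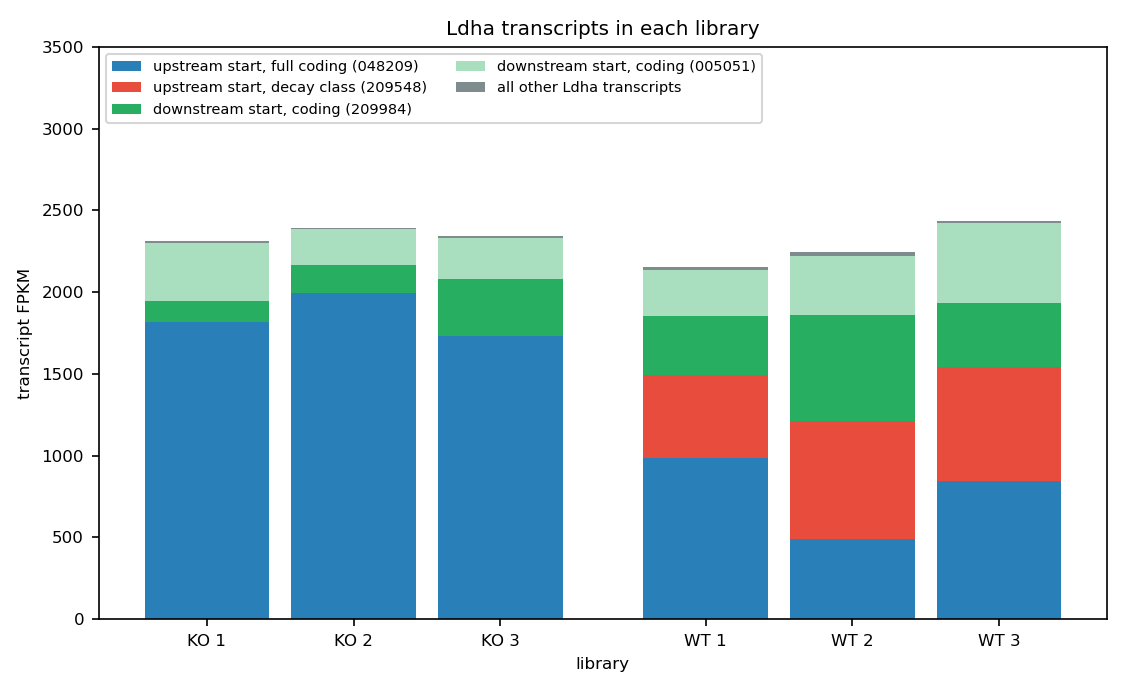
Stacked FPKM of the Ldha transcripts in each library, KO on the left and WT on the right. Blue is the full-length coding transcript of the upstream start, red the decay transcript of the same start, dark and light green the coding transcripts of the downstream start, and grey all others. Red is listed at 0 in every KO library and at 505 to 726 FPKM in WT, while the whole bars overlap between groups between 2312 and 2393 FPKM in KO and between 2152 and 2434 FPKM in WT.

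As shares of Ldha transcript FPKM, the full-length transcript held 78.7, 83.3 and 73.9% in KO and 45.9, 21.8 and 34.7% in WT. The groups did not overlap, and the means were 78.6 ± 4.70% in KO and 34.1 ± 12.1% in WT (SD, n = 3 each, exact two-sided permutation p = 0.1, the smallest that 3 against 3 allow). The decay transcript took 23.5, 32.3 and 28.7% in WT. Summing it with the full-length transcript left 1819, 1993 and 1732 FPKM in KO and 1492, 1214 and 1541 FPKM in WT, so a smaller difference of the same direction remained between the starts (ratio of means 1.31, exact two-sided permutation p = 0.1). Transcripts of the upstream start made up 78.9, 83.5 and 74.2% in KO and 69.7, 54.96 and 63.6% in WT. Those of the downstream start made up 20.9, 16.3 and 25.6% in KO and 30.01, 44.9 and 36.1% in WT. Whether the promoter letters shown above have a part in this was not tested. The summed FPKM of all Ldha transcripts was 2312, 2393 and 2345 FPKM in KO and 2152, 2243 and 2434 FPKM in WT, overlapping between groups (exact two-sided permutation p = 0.5). Without KO replicate 3 the share of the full-length transcript was higher in KO by 46.9 percentage points, beside 44.5 with all libraries, so the split among Ldha transcripts did not rest on that library.

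Of the 234 transcripts of the other 39 genes, 2 had a q-value under 0.05 in the authors' deposited table, both retained-intron forms, where 1.82% of all transcripts did. One of Pdhb (ENSMUST00000224864) was at 0.295, 0.230 and 0.241 FPKM in KO and 0.872, 0.613 and 0.683 FPKM in WT and did not pass the filter on low values. One of Pgls (ENSMUST00000123240) was at 2.33, 2.35 and 2.94 FPKM in KO and 4.12, 4.12 and 3.59 FPKM in WT, below WT in every KO library, with a log2 fold change of -0.48 (limma adjusted p = 0.8, 95% interval -0.85 to -0.11), which did not pass. The authors' own label of significance was yes for the Pdhb form and no for the Pgls form.

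**Figure D5:**
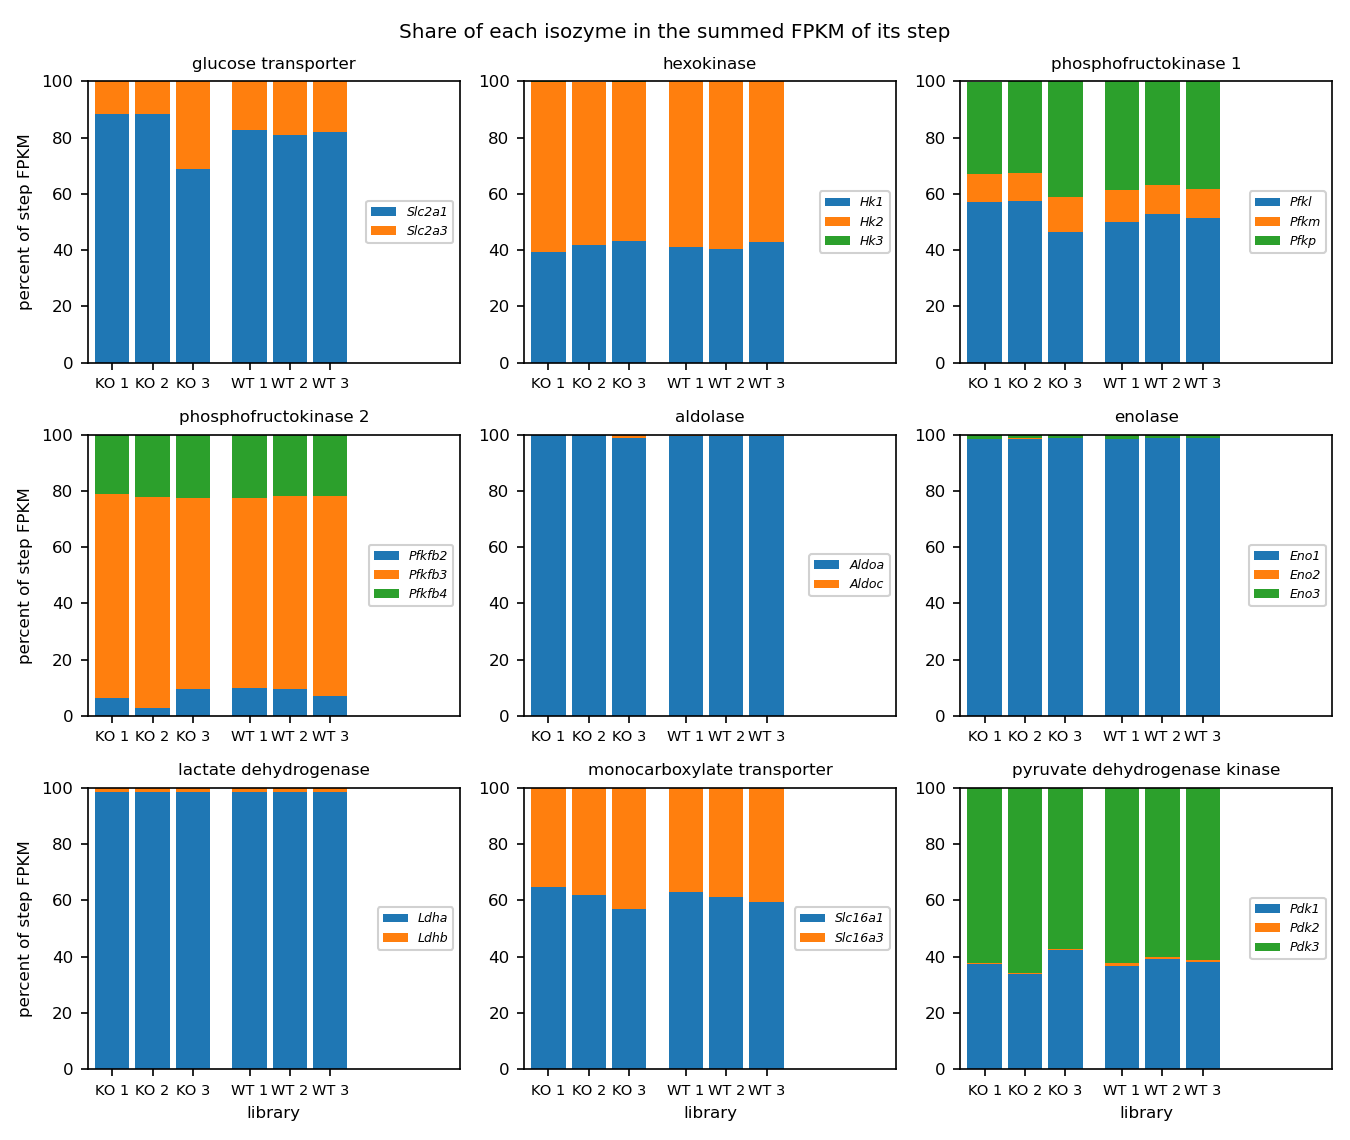
Percent of the summed deposited gene FPKM of a step held by each of its isozymes in every library, for the 9 steps with 2 or 3 genes, KO bars left and WT bars right. Slc2a3, Pfkp and Slc16a3 take their highest share in KO replicate 3, and the shares of aldolase, enolase and lactate dehydrogenase lie at 98.4% or more for 1 gene in all libraries.

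Pyruvate enters the mitochondrion and is oxidised by the pyruvate dehydrogenase complex, which pyruvate dehydrogenase kinases switch off. Pdha1, the catalytic E1 alpha subunit, was at 75.3, 76.7 and 79.5 FPKM in KO and 76.9, 79.3 and 79.3 FPKM in WT, with a log2 fold change of -0.03 (limma adjusted p = 0.937, 95% interval -0.16 to 0.11). Pdhb, the E1 beta subunit, was at 26.8, 26.4 and 23.5 FPKM in KO and 28.1, 25.2 and 25.9 FPKM in WT, with a log2 fold change of -0.04 (limma adjusted p = 0.913, 95% interval -0.23 to 0.14). Dlat, the E2 acetyltransferase, was at 22.96, 21.4 and 19.6 FPKM in KO and 20.2, 20.3 and 21.1 FPKM in WT, with a log2 fold change of 0.05 (limma adjusted p = 0.908, 95% interval -0.12 to 0.22). None of these subunits separated the groups, and their intervals all stayed within 0.5 of 0. Among the kinases, Pdk3 was at 24.1, 25.03 and 29.4 FPKM in KO and 26.4, 25.2 and 25.96 FPKM in WT, with a log2 fold change of 0.01 (limma adjusted p = 0.981, 95% interval -0.18 to 0.21). Pdk1, the kinase known as a HIF-1 target, was at 14.6, 12.8 and 21.7 FPKM in KO and 15.7, 16.3 and 16.1 FPKM in WT. KO replicates 1 and 2 were below all WT libraries and KO replicate 3 above them, and the log2 fold change was -0.01 (limma adjusted p = 0.993) with all libraries and -0.22 (limma adjusted p = 0.0812) without KO replicate 3. Pdk2 did not pass the filter, at 0.134 to 0.384 FPKM over the libraries. Pdk3 held 62.1, 65.99 and 57.1% in KO and 62.2, 60.3 and 61.3% in WT of the 3 kinases' FPKM (exact two-sided permutation p = 0.9).

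The pentose phosphate genes did not follow the pattern of KO replicate 3 seen in glycolysis. G6pdx, the NADPH-yielding entry enzyme, was at 39.1, 42.7 and 42.1 FPKM in KO and 39.6, 40.2 and 43.2 FPKM in WT, overlapping, with a log2 fold change of 0.01 (limma adjusted p = 0.978, 95% interval -0.15 to 0.17). Pgls, the lactonase of the following step (ENSMUSG00000031807, GRCm38 chr8:71592176-71601092, plus strand), was at 8.59, 8.14 and 8.86 FPKM in KO and 9.23, 9.13 and 9.08 FPKM in WT. It was the single gene of the pathways with all KO libraries below all WT libraries, with a log2 fold change of -0.09 (limma adjusted p = 0.87, 95% interval -0.25 to 0.07). Pgd, which makes the second NADPH, was at 38.2, 38.1 and 29.7 FPKM in KO and 32.7, 32.2 and 34.4 FPKM in WT. KO replicates 1 and 2 were above and KO replicate 3 below every WT library, with a log2 fold change of 0.08 (limma adjusted p = 0.894, 95% interval -0.16 to 0.32), and 0.20 (limma adjusted p = 0.0535) without KO replicate 3. In the reversible branch, Tkt, transketolase, was at 90.3, 94.7 and 88.9 FPKM in KO and 85.9, 88.7 and 91.9 FPKM in WT, with a log2 fold change of 0.04 (limma adjusted p = 0.908, 95% interval -0.10 to 0.18). Taldo1, transaldolase, was at 70.7, 73.98 and 58.4 FPKM in KO and 60.6, 63.7 and 69.3 FPKM in WT, with the same order of libraries as Pgd and a log2 fold change of 0.06 (limma adjusted p = 0.91, 95% interval -0.17 to 0.30). Rpia, the ribose phosphate isomerase, was at 11.7, 10.8 and 9.64 FPKM in KO and 10.2, 10.7 and 9.94 FPKM in WT, in that order again, and Rpe, the epimerase, at 22.4, 19.2 and 21.6 FPKM in KO and 21.2, 21.5 and 22.3 FPKM in WT, and neither separated the groups. KO replicates 1 and 2 were both above all other libraries for 3 of these 7 genes, against 16.6% of all genes, and KO replicate 3 was the lowest for 3, against 22% of all genes.

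Ordered by mean FPKM over the 6 libraries and leaving out Gapdh, Ldha (1117), Pgk1 (993), Pkm (696), Aldoa (588), Eno1 (553), Tpi1 (461) and Pgam1 (429) led. Neighbours are compared within each library. Ldha was above Pgk1 except in KO replicate 3, and Tpi1 was above Pgam1 except in KO replicate 1. Pgk1 was above Pkm, Pkm above Aldoa, Aldoa above Eno1 and Eno1 above Tpi1 in every library. The ranges over libraries overlapped for the last 3 of these pairs. The step down to Gpi1 (92.7) was clear of any library. With transcript FPKM summed instead, the first 5 were Ldha (2313), Eno1 (1470.0), Pkm (1446), Pgk1 (1222) and Aldoa (1142).

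The other genes of these pathways were taken from 4 lists of 77 symbols, of which 70 are in the table and 51 were tested. None passed the test with all libraries, 2 had an unadjusted p under 0.05, and the median log2 fold change was -0.03, beside -0.025 over all genes. The log2 fold change was above 0 for 12 and below 0 for 39, beside 4491 and 6382 of all tested genes. All KO libraries were below all WT libraries for 5 of the 51 (the background is 6.88%) and above them for 0 (the background is 4.28%). Of the branches to glycogen, glycerol phosphate and ribose, 0 of 20 passed. Prps1l3, a relative of the ribose phosphate pyrophosphokinase gene Prps1 with which it may share reads, was at 30.3, 27.6 and 30.6 FPKM in KO and 35.8, 36.00 and 35.7 FPKM in WT, below WT in every KO library, with a log2 fold change of -0.27 (limma adjusted p = 0.57, 95% interval -0.42 to -0.12). Pgm2l1, which makes glucose 1,6-bisphosphate, was at 1.86, 1.87 and 1.998 FPKM in KO and 2.63, 2.56 and 2.43 FPKM in WT, also without overlap, with a log2 fold change of -0.28 (limma adjusted p = 0.806, 95% interval -0.48 to -0.08). Of the other isozymes 0 of 6 tested passed, and the leading pair were the transporter Slc2a6 at 5.72, 6.61 and 5.12 FPKM in KO and 6.62, 6.89 and 7.10 FPKM in WT, with a log2 fold change of -0.21 (limma adjusted p = 0.843, 95% interval -0.44 to 0.01), and Pfkfb1 at 1.01, 1.48 and 1.33 FPKM in KO and 1.81, 1.74 and 1.48 FPKM in WT, with a log2 fold change of -0.24 (limma adjusted p = 0.843, 95% interval -0.51 to 0.04). Of the pyruvate carriers, complex subunits and phosphatases 0 of 8 passed, led by Pdpr, a regulatory subunit of pyruvate dehydrogenase phosphatase, at 3.81, 2.35 and 6.13 FPKM in KO and 5.50, 5.84 and 4.95 FPKM in WT, with a log2 fold change of -0.40 (limma adjusted p = 0.847, 95% interval -0.97 to 0.17). The phosphatase Pdp1 was at 4.52, 4.76 and 5.08 FPKM in KO and 4.45, 4.49 and 5.03 FPKM in WT, overlapping, with a log2 fold change of 0.03 (limma adjusted p = 0.946).

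Of the regulators of glycolysis 0 of 17 passed with all libraries, and KO replicate 3 was the highest library for 13 (76.5%, against 27.7% of all genes). Hif1a, the oxygen-regulated subunit of HIF-1, was at 103, 97.5 and 174 FPKM in KO and 155, 148 and 141 FPKM in WT. KO replicates 1 and 2 were below and KO replicate 3 above all WT libraries, with a log2 fold change of -0.29 (limma adjusted p = 0.866, 95% interval -0.77 to 0.18), and without KO replicate 3 Hif1a fell, with a log2 fold change of -0.56 (limma adjusted p = 0.00621, 95% interval -0.69 to -0.43). Irf4, a transcription factor induced by T cell receptor signals, had the same order at 107, 110.1 and 199.9 FPKM in KO and 175, 172 and 167 FPKM in WT, with a log2 fold change of -0.36 (limma adjusted p = 0.847, 95% interval -0.87 to 0.15), and fell without KO replicate 3, with a log2 fold change of -0.65 (limma adjusted p = 0.00313, 95% interval -0.77 to -0.54). In that fit 10 of the 51 tested genes of the 4 lists fell and 0 rose, beside the 6.14% and 4% of all genes. Besides Hif1a and Irf4 these were Egln3, Myc, Txnip, Gys1, Gbe1, Pgm1, Pdpr and Prps1l3, named after their values were seen. Egln3, a HIF prolyl hydroxylase, had a log2 fold change of -0.67 (limma adjusted p = 0.0148), Gbe1, the glycogen branching enzyme, of -0.57 (limma adjusted p = 0.0118), and Myc of -0.28 (limma adjusted p = 0.0247) in that fit. In KO replicate 3 Prps1l3 was below all WT libraries as well, and the other 9 were above all of them. As for the pathway genes, the calls without KO replicate 3 rest on the remaining KO libraries and on a choice made from the values.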

How the data were processed

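The authors deposited FPKM per gene and per transcript for 6 libraries, with a ratio, its log2 value, a p-value and a q-value per feature, per the file headers. Per the submitters' processing notes, cutadapt, FastQC, HISAT2, StringTie, DESeq2, edgeR and the build mm9 were named, without versions or roles. Coordinates are given as GRCm38, since 73240 of 73430 matched transcripts had the same position in its GENCODE annotation. The deposited gene FPKM equalled summed transcript FPKM times length over the gene's union exon length within 0.1% for 9997 of 10134 genes, so genes with long annotated exons read lower.

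FPKM being no counts, limma 3.58.1 (R 4.3.3) was fitted to log2(FPKM + 1) with a mean trend, on features at 1 FPKM or more in at least 3 libraries, and was checked on simulated data. This scale understates changes of low genes. Shares were compared by exact two-sided permutation tests over 9 steps. With Benjamini-Hochberg adjustment over the steps every such p was 1.0. Copies were found with BLAST 2.17.0. Values per library were given for the highest and second isozyme of each step, the 8 members of smallest p, Ldha and Pkm transcripts averaging 1 FPKM or more, and the 2 genes of smallest p per list. Members and lists were chosen with earlier results of these data known. The deposited Gene Ontology tables were not used here.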

Additional observations from a re-analysis of the deposited data

How the results depend on the processing

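Read depth is unknown, so precision rests on 3 libraries per group. The count of genes called over the whole table was 12, and 5 with a filter at 5 FPKM, 7 at an adjusted p under 0.01, and 0 to 1088 with 1 library left out (0, 6 and 1088 without KO replicates 1 to 3 and 6, 1 and 4 without WT replicates 1 to 3). Of the pathway genes 0 were called under any of median scaling, removal of length and GC trends, a pseudocount of 0.1, either change of filter, no mean trend and the stricter adjusted p, and 0 to 4 with 1 library left out, the 4 without KO replicate 3 alone. For the other pathway lists these counts were 0 and 0 to 10. The transcript calls numbered 8, and 4 with no filter, 25 with no mean trend, 4 at an adjusted p under 0.01 and 1 to 6 with 1 library left out. Among transcripts of these genes 1 was called, and 0 to 1 with 1 library left out, the 0 being without any WT replicate. Of 600 alternative values of single genes and transcripts, 58 changed sign, in 30 features, none of them called.

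The labels do not say whether libraries of the same replicate number were paired. The correlations of their deviations were 0.007, -0.017 and -0.076, and those of libraries with unlike numbers lay between -0.107 and 0.12. With 3 libraries per group such values cannot settle whether the libraries were paired. With the replicate number as a block, 13 genes and 3 transcripts were called, 0 pathway genes and 1 of their transcripts, the decay transcript of Ldha. The cause of these differences was not tested.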

Other observations

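The liver isozymes Slc2a2 and Pklr were close to 0 in every library. Over the 6 libraries the highest value was 0.0397 FPKM for Slc2a2, the transporter of liver and pancreatic beta cells, and 0.0134 FPKM for Pklr, the pyruvate kinase of liver and red cells. The kinase Pdk4 reached 0.0122 FPKM and was listed at 0 in all 3 KO libraries and in 2 of the WT libraries. Of the 19 other isozymes measured, 6 passed the filter, and the highest was Slc2a6 between 5.12 and 6.61 FPKM in KO and between 6.62 and 7.10 FPKM in WT.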
